A study of Homo sapiens with 16 samples.

Results

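The keratin gene clusters hold the type II keratin genes on chromosome 12 and the type I keratin genes on chromosome 17. Every peak of the 12 peak lists that lay in chr12:52560000-53350000 or chr17:38800000-39790000 (hg19, windows of 790 kb and 990 kb) was taken. This gave 378 of the 193384 peaks in the full lists, 285 in the type II window and 93 in the type I window. Of these, 50 were peaks of H3K4me3, 253 of H3K27me3 and 75 of H3K9me2, and no peak crossed a window edge. The marks had been mapped by chromatin immunoprecipitation and sequencing (ChIP-seq) in MDA-MB-231, a human breast cancer line that the labels describe as derived from a metastatic site, and in MCF-10A, a line of human breast epithelium that does not form tumours and that they describe as luminal ductal. Both were lab-maintained stocks harvested subconfluent and carried no treatment, and MCF-10A grew in medium with EGF, insulin, cholera toxin and hydrocortisone. Each mark had 2 biological replicates per line. Start sites on hg19 were set for 5 genes, KRT5, KRT14, KRT17, KRT18 and KRT19, and no other peak was assigned to a gene, because only the order of RefSeq genes, from another build, was used here.

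Keratins are the intermediate filament proteins of epithelial cells, and a filament needs a type I and a type II partner. In the mammary gland KRT5 (type II) with KRT14 and KRT17 (type I) mark the basal, myoepithelial layer, whereas KRT18 and KRT19 (type I) with KRT8 (type II) mark the luminal layer, and the gene for KRT18 sits beside that for KRT8 among the type II genes. H3K4me3 marks active and poised promoters, Polycomb complexes lay down H3K27me3, and H3K9me2 is found over silenced chromatin. In RefSeq order 26 type II genes and then KRT18 run from KRT80 to KRT18, and 28 type I keratin genes with 34 genes of keratin-associated proteins (KRTAP), which belong to hair, run from KRT222 to KRT17.

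The start of KRT5 carried different marks in the 2 lines, and its promoter is shown for that reason. RefSeq (GRCh38.p14, chromosome 12, minus strand) gives these 250 bases before the start, 5′ to 3′, with capitals where CATGCC and its reverse complement GGCATG overlap, at bases -94 to -89 and -96 to -91 counted from the start.
KRT5: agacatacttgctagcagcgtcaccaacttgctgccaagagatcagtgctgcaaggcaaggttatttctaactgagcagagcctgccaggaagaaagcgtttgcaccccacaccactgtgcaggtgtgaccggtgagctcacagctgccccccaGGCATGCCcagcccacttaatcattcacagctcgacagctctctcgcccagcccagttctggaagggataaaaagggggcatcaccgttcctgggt
CATGCC has the form of the core of sites for the p53 family, which includes the basal epithelial regulator p63. It occurred on either strand in 10.5% of the 35114 RefSeq promoters of this kind, which run from 250 bases before to 50 after a start, so the match is a description and no site. The KRT5 window of that length had a GC content of 56.3% and 7 CpG, beside medians of 58.7% and 14 over all promoters. No strand of it held TATAAA, a form of the TATA box that occurred in 11.5% of promoters. Other forms of the TATA box were not searched, so its absence is not shown. The KRT5 window did not hold the GC box letters CCGCCC either (45.0% of promoters), and the AP-1 letters TGACTCA (4.95%) were also not in this window. The clusters hold 27 keratin genes from KRT80 to KRT18 and 28 from KRT222 to KRT17. Promoters of 34 of these genes matched by symbol, all on the minus strand. KRT14, KRT17, KRT18 and KRT19 were not among them, so the values cover part of the clusters. Taking the first entry of each gene, TATAAA was found in 20 of the 34 (58.8%), with a median GC content of 45.7% and a median of 2 CpG.

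The lists differed in length by mark and line. H3K4me3 lists held 16578 and 16193 peaks in MDA-MB-231 and 15568 and 16776 in MCF-10A, and H3K9me2 lists 6147 and 5045 against 10656 and 8885. The H3K27me3 list of MDA-MB-231 replicate 1 stood apart, with 8470 peaks over 6.54 Mb, whereas replicate 2 had 30496 over 19.6 Mb and the MCF-10A lists had 28896 and 28955. Coverage is therefore given both in bp and in bp per Mb of a list's total coverage (bp/Mb). Depth is unknown, since the lists give intervals and a score of the authors' own but no reads. Within the windows the Jaccard index of covered bases between replicates was 0.823 in MDA-MB-231 and 0.783 in MCF-10A for H3K4me3, 0.358 and 0.522 for H3K9me2, and 0.075 and 0.233 for H3K27me3. Of the keratin H3K27me3 peaks, 20 of the 36 in MDA-MB-231 replicate 1 met a peak of replicate 2, and 25 of the 151 of replicate 2 met a peak of replicate 1. In MCF-10A, 14 of 35 in replicate 1 met a peak of replicate 2, and 14 of 31 in replicate 2 met a peak of replicate 1.

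At the starts of the basal keratins, peaks of H3K4me3 were listed in MCF-10A for KRT5 and KRT17, and peaks of H3K27me3 in MDA-MB-231 for KRT5, KRT14 and KRT17. KRT5, the type II partner in basal cells, had 0 and 0 bp of H3K4me3 within 2.5 kb of its start in the MDA-MB-231 replicates, against 1366 and 1721 bp in the MCF-10A replicates. The region spanned chr12:52912513-52914342, and its authors' scores ranked at percentiles 43.5 and 43.7 of the MCF-10A lists, so both MCF-10A libraries were above both MDA-MB-231 libraries with a peak of middling rank. The nearest H3K4me3 peak in MDA-MB-231 lay 232 and 212 kb away. For H3K27me3 the same interval held 247 and 787 bp in MDA-MB-231 and 0 and 0 bp in MCF-10A. The replicate 2 peak (chr12:52913635-52914421) covered the start itself, with 178 bp before it, whereas that of replicate 1 began 2.25 kb past the start, inside the transcribed side. Within 1 kb of the start, or with a score of at least 100, 1 MDA-MB-231 library had an H3K27me3 peak instead of 2. H3K9me2 was listed at 0 bp there in all 4 libraries, and its nearest peak lay 4.57 and 19.3 kb away in MDA-MB-231 and 9.48 and 8.17 kb away in MCF-10A.

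KRT17, a type I keratin of basal and stressed epithelia, had the same arrangement. H3K4me3 covered 0 and 0 bp in MDA-MB-231 and 1421 and 1408 bp in MCF-10A, as a region at chr17:39779256-39780847 that ended 35 bp short of the start on the gene's side. H3K27me3 covered 645 and 1029 bp in MDA-MB-231 and 0 and 0 bp in MCF-10A. Here the H3K27me3 peaks of both MDA-MB-231 replicates (chr17:39780238-39781014 when merged) met the H3K4me3 region of MCF-10A, and the replicate 1 peak covered the start. The peaks nearest to the start scored 79.3 in each replicate, and no library had one within 2.5 kb at a score of at least 100. The H3K4me3 percentiles were low, 19.0 and 25.6 in MCF-10A.

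KRT14, the type I partner of KRT5, differed from the other basal keratins in having no H3K4me3 peak within 2.5 kb in any of the 4 libraries. The nearest lay 58.3 and 58.2 kb away in MDA-MB-231, over the start of KRT19, and 36.3 and 36.1 kb away in MCF-10A, beside KRT17. H3K27me3 was listed at 0 and 3003 bp in MDA-MB-231 and at 0 and 0 bp in MCF-10A. The coverage in MDA-MB-231 replicate 2 came from 4 peaks, and replicate 1, the short list, had its nearest peak 5.99 kb before the start. H3K9me2 covered 1149 and 0 bp in MDA-MB-231 and 0 and 0 bp in MCF-10A. Both MDA-MB-231 replicates had an H3K9me2 peak past the start, 1.35 and 2.84 kb from it, in a region (chr17:39738137-39741795) where MCF-10A had none, so the count of MDA-MB-231 libraries with a peak was 0 within 1 kb and 2 within 5 kb. KRT14, KRT16 and KRT17 are near copies of each other, as are KRT6A, KRT6B and KRT6C and the KRTAP genes, and the sources used here do not say how reads with several matches were treated, so peaks there are uncertain.

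**Figure D1:**
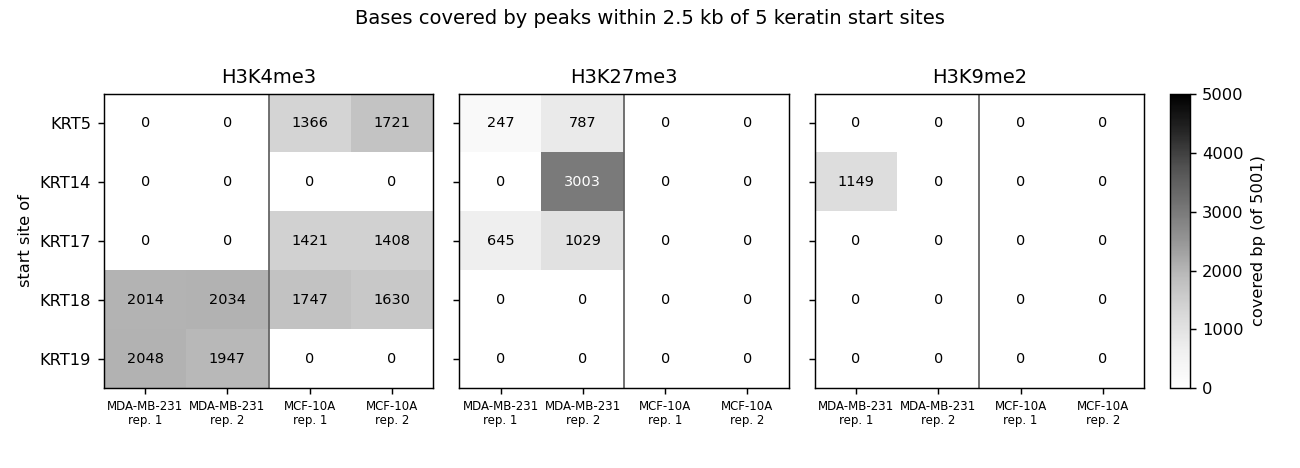
Bases covered by peaks (bp, of the interval within 2.5 kb on either side) at 5 keratin start sites in each library, with a panel per mark and the MDA-MB-231 replicates left of the MCF-10A replicates. H3K4me3 covers KRT19 with 2048 and 1947 bp in MDA-MB-231 only, KRT5 and KRT17 in MCF-10A only and KRT18 in all 4 libraries, and every filled cell of the repressive marks belongs to MDA-MB-231.

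The luminal keratins carried H3K4me3 at the start, KRT18 in both lines and KRT19 in MDA-MB-231 alone, with no repressive peak near either start. KRT18 was covered over 2014 and 2034 bp in MDA-MB-231 and 1747 and 1630 bp in MCF-10A. Its region, chr12:53342495-53344561, was present in all 4 libraries at percentiles 83.2 and 98.8 in MDA-MB-231 and 84.6 and 98.3 in MCF-10A, among the highest scores of each list. KRT19, a type I keratin of simple epithelia that lacks most of the tail domain, had 2048 and 1947 bp in MDA-MB-231 and 0 and 0 bp in MCF-10A. Its peaks ranked at percentiles 99.0 and 98.8 of the MDA-MB-231 lists and reached 198 and 316 bp before the start. The 2 lines thus did not overlap at KRT19, in the opposite direction to KRT5 and KRT17. H3K27me3 was distant from both genes: at least 87.1 kb from KRT18 and 34.6 kb from KRT19 in MDA-MB-231, and at least 131 kb and 203 kb in MCF-10A. The nearest H3K9me2 peak to KRT19 lay 53.5 and 53.7 kb away in MDA-MB-231 and 40.7 and 86.6 kb away in MCF-10A.

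Read against the label that calls MCF-10A luminal ductal, the basal keratins KRT5 and KRT17 had H3K4me3 at the start in that line and KRT14 had none, while of the luminal keratins KRT18 had it and KRT19 did not. The lists hold no RNA values, and a peak is no measure of expression. With 2 libraries a line, an exact permutation test at a start site cannot go below p = 0.333, and the start sites are described without a test of their own.

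Across both windows H3K4me3 formed 18 merged regions (peaks of the 4 libraries joined where they overlapped by at least 1 bp). The class in both MDA-MB-231 replicates and neither MCF-10A replicate held 1 of them, the KRT19 start (5.56%, beside 6.27% of all 18048 H3K4me3 regions). The reverse class held 7 (38.9%, beside 5.91% of all regions), and 7 regions were in all 4 libraries (38.9%, beside 68.5% of all regions). The other 3 regions, all in the type II window, were listed in 1 library or in 1 of each line. The count of MDA-MB-231 regions without MCF-10A was 2 when replicate 1 of MDA-MB-231 was left out.

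Of the 7 regions found in MCF-10A without MDA-MB-231, 5 were in the type II window. Besides KRT5 they lay at chr12:52886033-52887073, chr12:52866930-52867487 and chr12:52845147-52845912, which are 27.2, 46.8 and 68.3 kb lower on the chromosome than the KRT5 start, and at chr12:52672438-52672951. The next genes on that side of KRT5 in RefSeq order are KRT6A, KRT6C and KRT6B, keratins of stratified and wounded epithelium, to which the regions were not assigned. These distal regions were short, from 389 to 1041 bp in a library, and ranked at percentiles of at most 25.5. The remaining type I region was the broadest of the 7. It covered 3789 and 3968 bp of chr17:39671265-39675232 in MCF-10A, at percentiles 86.8 and 98.3, and ended 9.41 kb lower than the KRT19 start, where KRT15, a keratin of basal epithelial cells, is the next keratin gene in RefSeq order. MCF-10A therefore had a strong H3K4me3 region on this neighbouring side and none at KRT19, and MDA-MB-231 had the opposite.

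The 7 regions in all 4 libraries were present in both lines and differed in width. Besides KRT18 they included chr12:53296493-53299143, 43.5 kb lower than the KRT18 start, where KRT8 is the next keratin gene in order. This region covered 1848 and 2062 bp in MDA-MB-231 and 2254 and 2423 bp in MCF-10A. The region at chr12:52626102-52629370 ranked at percentiles 88.1 and 98.8 in MDA-MB-231 and 98.8 and 98.3 in MCF-10A. At chr12:52679517-52682208 the peaks covered 707 and 855 bp in MDA-MB-231 and 2549 and 2449 bp in MCF-10A, so those of MCF-10A were the broader in each library. At chr12:52584358-52586075 they covered 1634 and 1567 bp in MDA-MB-231 and 1112 and 1285 bp in MCF-10A, the other way round. The remaining shared regions were chr17:38803111-38805197 and chr17:38974441-38976249.

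**Figure D2:**
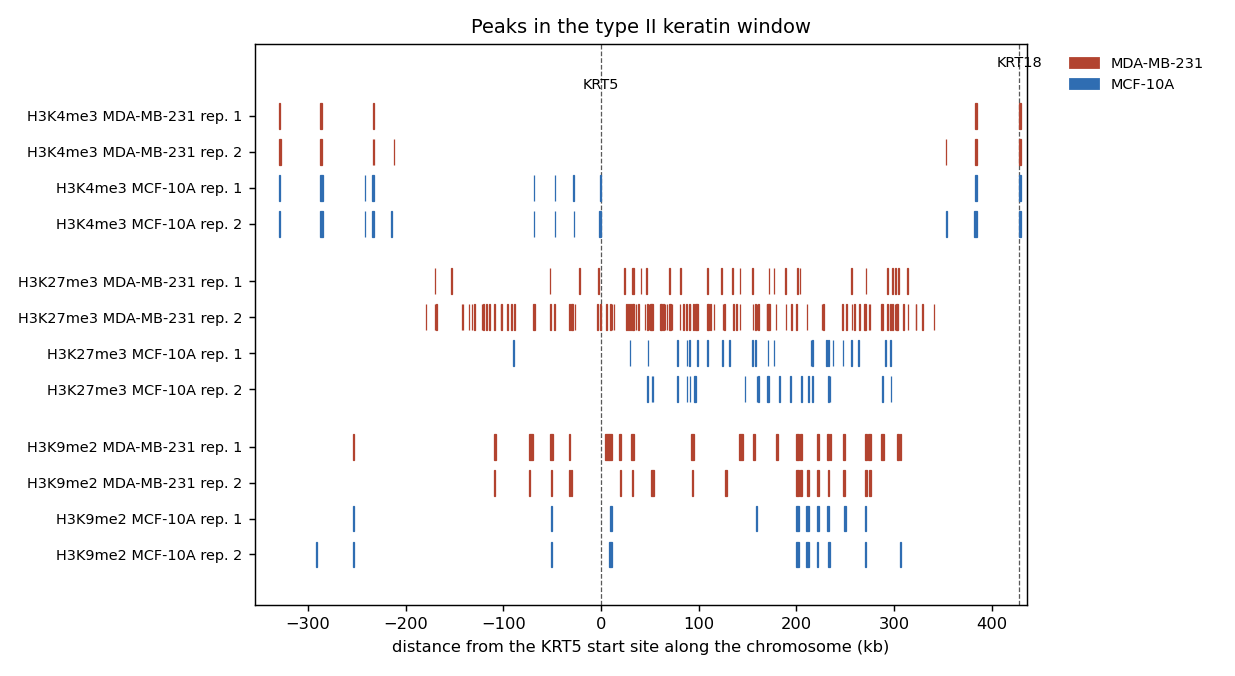
Peaks of each library in the type II window, as bars to scale against the distance from the KRT5 start (kb), with MDA-MB-231 above MCF-10A within each mark and dashed lines at KRT5 and KRT18. H3K4me3 bars at KRT5 and 27.2, 46.8 and 68.3 kb left of it are in the MCF-10A rows, and further left both lines have bars. H3K27me3 bars are dense between KRT5 and KRT18, with 23 and 85 peaks in MDA-MB-231 and 24 and 22 in MCF-10A, and KRT18 has none nearby.

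Summed over the windows, H3K4me3 covered 8636 and 10113 bp of the type II window in MDA-MB-231 and 13853 and 15841 bp in MCF-10A. In the type I window it covered 5594 and 5634 bp in MDA-MB-231 and 8526 and 8942 bp in MCF-10A. The log2 ratios of the means, MDA-MB-231 over MCF-10A, were -0.66 and -0.64. The lines did not overlap in either window, and the two-sided exact permutation p was 0.333, the smallest that 2 against 2 allow.

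H3K27me3 was spread over much of the type II cluster in MDA-MB-231. It covered 21658 and 69508 bp of the type II window in MDA-MB-231, which is 2.74% and 8.80%, and 14492 and 14323 bp in MCF-10A, which is 1.83% and 1.81%. Relative to list coverage the replicates were closer, with 3312 and 3544 bp/Mb in MDA-MB-231 and 673 and 670 bp/Mb in MCF-10A. The log2 ratio of the means was 1.66 in bp (exact permutation p = 0.333, the smallest possible) and 2.35 in bp/Mb. Without MDA-MB-231 replicate 2 the ratio in bp was 0.59, and without replicate 1 it was 2.27.

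Most of this coverage lay between KRT5 and KRT18, a stretch of 428 kb that holds 13 type II genes in RefSeq order, among them KRT1 and KRT2 of the suprabasal epidermis. The H3K27me3 peaks took up 4.19% and 12.3% of this stretch in MDA-MB-231 and 3.27% and 3.34% in MCF-10A. In list-relative terms the values were 2748 and 2686 bp/Mb in MDA-MB-231 and 651 and 670 bp/Mb in MCF-10A. MCF-10A thus also carried the mark there. On the other side of KRT5 lie 354 kb, where RefSeq order runs from KRT80 and KRT7 through hair keratins such as KRT81 and KRT86 to KRT6A. There H3K27me3 peaks numbered 5 and 28 in MDA-MB-231 and 1 and 0 in MCF-10A.

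In the type I window the mark sat in different places in the 2 lines. From the KRT19 start to the window end, 105 kb with KRT9, KRT14, KRT16 and KRT17, there were 6 and 24 peaks over 4265 and 14794 bp in MDA-MB-231 and no peak in either MCF-10A library. From the window start to KRT19, 885 kb with the KRTAP genes, there were 2 and 14 peaks in MDA-MB-231 and 10 and 9 in MCF-10A. The totals of the window, 5855 and 22426 bp in MDA-MB-231 and 7107 and 6595 bp in MCF-10A, overlapped between the lines (log2 ratio 1.05, exact permutation p = 1). That sum in bp rested on MDA-MB-231 replicate 2, without which the log2 ratio was -0.23, and it was -0.35 for peaks with a score of at least 100. In list-relative terms the lines did not overlap, with 895 and 1143 bp/Mb in MDA-MB-231 and 330 and 309 bp/Mb in MCF-10A. The log2 ratio in bp/Mb was 1.67 (exact permutation p = 0.333, the smallest possible).

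**Figure D3:**
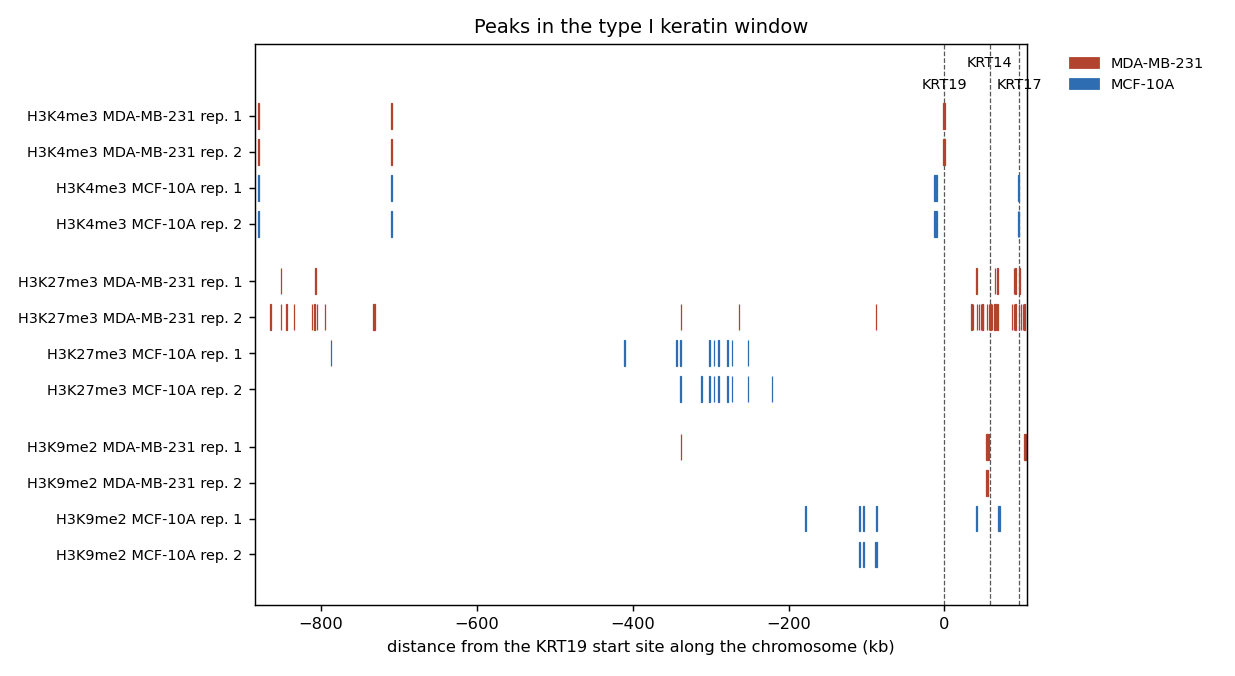
Peaks of each library in the type I window, as bars to scale against the distance from the KRT19 start (kb), with MDA-MB-231 above MCF-10A within each mark and dashed lines at KRT19, KRT14 and KRT17. Right of KRT19 MDA-MB-231 has 6 and 24 H3K27me3 peaks and MCF-10A none, and left of it MDA-MB-231 has 2 and 14 and MCF-10A 10 and 9.

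Of 191 merged H3K27me3 regions, 17 were in both MDA-MB-231 replicates and neither MCF-10A replicate (8.90%, beside 2.99% of all 66286 regions of the mark). The MCF-10A class held 9 (4.71% beside 11.1%), and 1 region, chr12:53084608-53087211, was in all 4 libraries (1.77% of all regions). A further 146 regions were in 1 library, 110 of them in MDA-MB-231 replicate 2. The counts depended on single libraries: the MDA-MB-231 class held 132 regions without MDA-MB-231 replicate 1 and 31 without replicate 2, and the MCF-10A class held 14 without MDA-MB-231 replicate 2, 17 without MCF-10A replicate 1 and 23 without MCF-10A replicate 2. The shared class held 5 without MDA-MB-231 replicate 1, 0 without MDA-MB-231 replicate 2 and 3 without MCF-10A replicate 2. At a score of at least 100 the MDA-MB-231 class held 1 region and the MCF-10A class 5.

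Of the 17 MDA-MB-231 regions, 11 were in the type II window and 6 in the type I window. The one with the highest ranks, chr12:52945828-52947735, lay 31.6 kb higher than the KRT5 start, at percentiles 99.2 and 89.6, and coincided with H3K9me2 peaks of both MDA-MB-231 replicates. A group of 5 stood between chr12:53207202 and chr12:53228841, from 114 to 134 kb lower than KRT18. In the type I window 5 of the 6 lay between KRT19 and KRT17, at chr17:39725440-39726726, chr17:39752239-39752961, chr17:39773647-39774527, chr17:39775209-39776193 and over the KRT17 start itself, so both MDA-MB-231 replicates met at sites around the basal type I keratins.

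Of the 9 MCF-10A regions, 6 formed a row in the type I window, from chr17:39382714 to chr17:39432719, 252 to 301 kb lower than the KRT19 start and within 50.0 kb. Their starts followed each other at 5.52 to 20.5 kb. Each was 707 to 934 bp wide and the best ranked, chr17:39388621-39389554, had percentiles 87.5 and 87.5. The KRTAP genes lie in this stretch between the window start and KRT19 in RefSeq order, and since these genes are tandem copies, the uncertainty over reads with several matches applies to this row. None of the 6 met an H3K9me2 peak of any library.

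**Figure D4:**
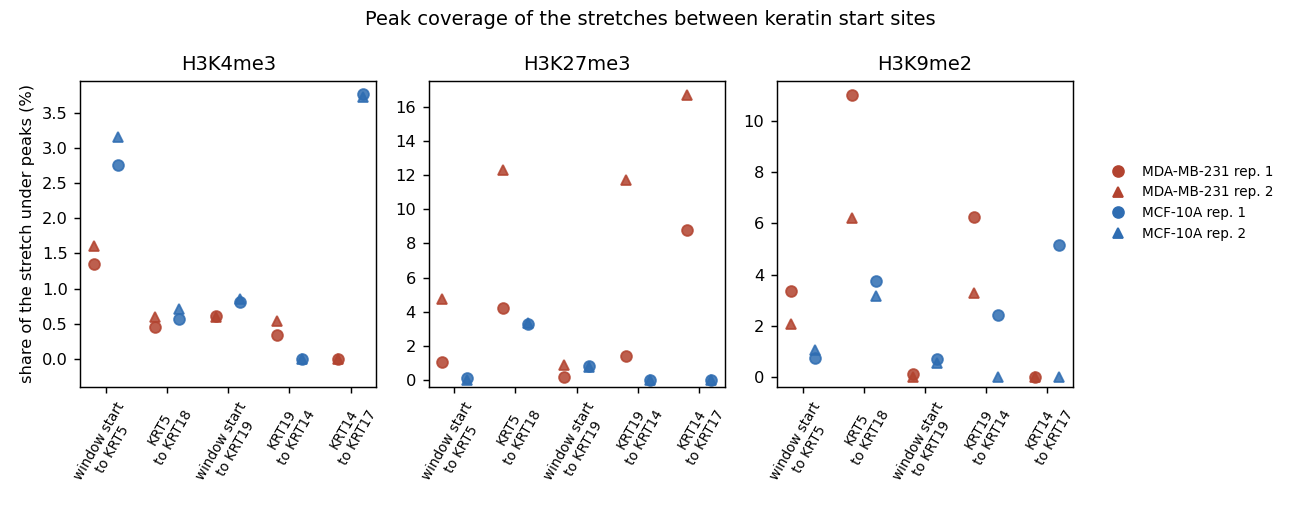
Share of the stretches between keratin start sites under peaks (%), with a panel per mark, MDA-MB-231 points left of MCF-10A points and a symbol per replicate. In the H3K27me3 panel the stretch between KRT5 and KRT18 has 4.19% and 12.3% in MDA-MB-231 and 3.27% and 3.34% in MCF-10A, and both stretches right of KRT19 are at 0 in MCF-10A.

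H3K9me2 covered 59181 and 33861 bp of the type II window in MDA-MB-231 (7.49% and 4.29%) and 18603 and 17246 bp in MCF-10A (2.35% and 2.18%). The lines did not overlap (log2 ratio 1.38, exact permutation p = 0.333), although the MDA-MB-231 lists were the shorter ones, and in list-relative terms the values were 3879 and 3203 bp/Mb in MDA-MB-231 and 976 and 1103 bp/Mb in MCF-10A. For peaks with a score of at least 100, of which each library had 2 or 3 there, the log2 ratio was -0.14. Coverage centred on the stretch between KRT5 and KRT18, with 11.0% and 6.21% in MDA-MB-231 and 3.75% and 3.17% in MCF-10A. In the type I window H3K9me2 covered 7298 and 1923 bp in MDA-MB-231 and 9335 and 4766 bp in MCF-10A, with overlapping lines (log2 ratio -0.61, exact permutation p = 0.667). Without MDA-MB-231 replicate 2 that ratio was 0.05.

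The 39 merged H3K9me2 regions held 9 of MDA-MB-231 without MCF-10A (23.1% beside 9.12% of all 18327), 3 of MCF-10A without MDA-MB-231 (7.69% beside 23.4%) and 5 shared by all 4 libraries (12.8% beside 5.3%). Of the MDA-MB-231 regions 8 were in the type II window, among them chr12:52840003-52844795 and chr12:52881147-52882681 on the KRT6 side of KRT5, and the best ranked was the region past the KRT14 start described above. The 5 shared regions were all in the type II window, and 4 of them lay between chr12:53113955 and chr12:53186565. The best ranked of these, chr12:53113955-53116779, had percentiles 77.8 and 90.4 in MDA-MB-231 and 94.4 and 92.8 in MCF-10A. The 3 MCF-10A regions were all in the type I window, at chr17:39575080-39576702, chr17:39579941-39581531 and chr17:39596175-39598113, between 86.5 and 108 kb lower than KRT19. The MDA-MB-231 class held 18 regions without MDA-MB-231 replicate 2, and the MCF-10A class held 5 without MDA-MB-231 replicate 1 and 7 without MCF-10A replicate 2.

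The places where MCF-10A had H3K4me3 without MDA-MB-231 were partly places of H3K27me3 in MDA-MB-231. Of the 7 regions, 1 met an H3K27me3 peak of MDA-MB-231 replicate 1 and 4 met one of replicate 2, beside 4.87% and 10.5% of all 1067 H3K4me3 regions of that class. The 4 were KRT5, KRT17 and the regions at chr12:52845147-52845912 and chr12:52866930-52867487, and KRT17 was the one met in both replicates. None of the 7 met an H3K27me3 peak of MCF-10A (8.53% and 7.12% of the class), and none met H3K9me2 in any library (1.22% and 1.03% for the MDA-MB-231 lists and 1.87% and 1.03% for the MCF-10A lists). The KRT19 region of MDA-MB-231 met neither repressive mark in any library. Of the 1131 regions of its class, 1.95% and 4.16% met H3K27me3 in MDA-MB-231 and 24% and 21.3% in MCF-10A, and 0.265% and 0.265% met H3K9me2 in MDA-MB-231 and 1.86% and 0.884% in MCF-10A. The 7 shared regions met neither repressive mark in any library either. Over all 12367 shared regions 0.615% and 1.32% met H3K27me3 in MDA-MB-231 and 2.68% and 2.35% in MCF-10A, and 0.259% and 0.226% met H3K9me2 in MDA-MB-231 and 2.32% and 1.89% in MCF-10A.

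The 2 repressive marks coincided in part in MDA-MB-231. Of the keratin H3K27me3 peaks, 7 of 36 in MDA-MB-231 replicate 1 met an H3K9me2 peak of the same replicate (19.4%, beside 13.7% of that whole list) and 15 of 151 in replicate 2 (9.93%, beside 8.60%). In MCF-10A 2 of 35 did so in replicate 1 (5.71%, beside 5.13%) and 2 of 31 in replicate 2 (6.45%, beside 4.10%). The shares in the windows were thus within 6 percentage points of those over each list.

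Coverage was then tested in 50 kb bins with limma on log2 of bp/Mb plus 10, with Benjamini-Hochberg adjustment over all bins of the genome and a threshold of 0.05. The windows touch 36 bins. For H3K4me3, 12 of them were tested, and 6 were lower in MDA-MB-231 (8.58% of all 11941 bins tested) and 0 higher (9.66%; limma called 0, and 1 bin was higher at an unadjusted p under 0.05). The median log2 ratio of the 12 bins was -0.63, beside 0.00 over all bins. That median includes bins that passed the filter through 1 line alone. It was -0.09 over 8 bins without MCF-10A replicate 1 (0.03 over all bins). Without MCF-10A replicate 2 it was -0.02 over 8 bins (-0.004 over all bins). Of the 6, 4 were listed at 0 in MDA-MB-231 and passed the filter on low values through MCF-10A alone, so they had to differ, and without either MCF-10A replicate 2 bins were called, since such bins then no longer passed the filter.

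The bin of KRT5 had 0 and 0 bp/Mb of H3K4me3 in MDA-MB-231 and 68.3 and 78.4 bp/Mb in MCF-10A (limma adjusted p = 0.00141). The bin of KRT17 had 0 and 0 bp/Mb in MDA-MB-231 and 71.1 and 64.1 bp/Mb in MCF-10A (limma adjusted p = 0.00141). Bins starting at chr12:52800001 and chr12:52850001, on the KRT6 side, were likewise listed at 0 in MDA-MB-231. Both sides were above 0 in 2 called bins. The bin at chr12:52650001 had 32.7 and 39.4 bp/Mb in MDA-MB-231 and 149 and 155 bp/Mb in MCF-10A (limma adjusted p = 0.00167, log2 ratio -1.82 with an SE of 0.11). The bin that holds KRT19 had 94.8 and 89.8 bp/Mb in MDA-MB-231 and 190 and 181 bp/Mb in MCF-10A (limma adjusted p = 0.00245, log2 ratio -0.93 with an SE of 0.07). That bin is lower in MDA-MB-231 although the KRT19 start has its peak there, because it also holds the broader MCF-10A region at chr17:39671265-39675232. The bin of KRT18 did not pass (limma adjusted p = 0.308, log2 ratio 0.19 with an SE of 0.10).

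For H3K27me3, 18 bins were tested, of which 10 were higher in MDA-MB-231 (11.4% of all 9981) and 1 lower (35.1%). Of the 10, 6 were listed at 0 in MCF-10A and, by the same filter, had to differ. The median log2 ratio of the 18 bins was 2.62, beside -1.18 over all bins, which is the opposite sign. That median includes bins that passed the filter through 1 line alone. It was 2.06 over 12 bins without MDA-MB-231 replicate 1 (-1.11 over all bins). Without MDA-MB-231 replicate 2 it was 1.70 over 11 bins (-2.08 over all bins). The bin of KRT5 had 509 and 444 bp/Mb in MDA-MB-231 and 11.7 and 0 bp/Mb in MCF-10A (limma adjusted p = 0.00902, log2 ratio 5.04 with an SE of 0.56). The MCF-10A value came from a peak of 251 bp at percentile 0.00346 of the replicate 1 list. This bin too passed the filter only through MDA-MB-231, and with a pseudocount of 1 bp/Mb its limma adjusted p was 0.0494. The bin of KRT14 had 226 and 482 bp/Mb in MDA-MB-231 (limma adjusted p = 0.00801) and that of KRT17 had 426 and 303 bp/Mb (limma adjusted p = 0.00666), and both were listed at 0 in MCF-10A, so these 2 bins are among those that had to differ. The MDA-MB-231 replicates were apart in the bin of KRT14, where replicate 1 had no peak within 2.5 kb of the start.

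The other higher H3K27me3 bins lay at chr12:52700001, chr12:52750001 and chr12:52850001 and at chr17:38800001, all listed at 0 in MCF-10A, and between KRT5 and KRT18 at chr12:52950001, chr12:53000001 and chr12:53200001. Of the last 3, the log2 ratios were 2.54 ± 0.48, 1.37 ± 0.29 and 2.71 ± 0.31 (SE), with limma adjusted p = 0.0283, 0.0383 and 0.00983. The bin at chr12:53000001 had -0.55 with peaks of a score of at least 100, the opposite direction. The lower bin, chr17:39350001, was listed at 0 in MDA-MB-231, had to differ by the filter, and had 101 and 141 bp/Mb in MCF-10A (limma adjusted p = 0.00666). It holds 3 of the 6 MCF-10A regions in the row described above. The count of higher bins was 4 without MDA-MB-231 replicate 1 and 6 without MCF-10A replicate 1, and that of lower bins 3 without MDA-MB-231 replicate 2 and 0 without either MCF-10A replicate. With unscaled coverage 6 bins were higher, and the median of all bins moved to -1.88. The bins at chr12:52950001, chr12:53000001 and chr12:53200001 kept their sign there without passing (limma adjusted p = 0.267, 0.741 and 0.103). With lists of equal length 9 bins were higher and 3 lower.

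For H3K9me2, 12 bins were tested, of which 3 were higher in MDA-MB-231 (15.9% of all 7427) and 1 lower (49%), with a median log2 ratio of 1.66 beside -2.38 over all bins. This median too includes bins that passed the filter through 1 line alone. It was 1.12 over 7 bins without MDA-MB-231 replicate 1 (-3.19 over all bins). Without MDA-MB-231 replicate 2 it was 2.23 over 10 bins (-3.15 over all bins). All 3 higher bins were in the type II window. The bins at chr12:52800001 and chr12:53000001 were listed at 0 in MCF-10A, passed the filter through MDA-MB-231 alone and so had to differ, and had 402 and 301 bp/Mb and 192 and 334 bp/Mb in MDA-MB-231 (limma adjusted p = 0.000721 and 0.00174). The bin at chr12:52850001 had 286 and 387 bp/Mb in MDA-MB-231 and 54.8 and 82.7 bp/Mb in MCF-10A (limma adjusted p = 0.0197, log2 ratio 2.15 with an SE of 0.40). The lower bin, chr17:39550001, was listed at 0 in MDA-MB-231, passed through MCF-10A alone and so also had to differ, and had 253 and 305 bp/Mb in MCF-10A (limma adjusted p = 0.000575), and it holds the 3 MCF-10A regions named above. The bins of KRT5, KRT14 and KRT17 did not pass for this mark (limma adjusted p = 0.117, 0.155 and 0.920). The count of lower bins was 2 without MDA-MB-231 replicate 1 and 0 without either MCF-10A replicate.

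**Figure D5:**
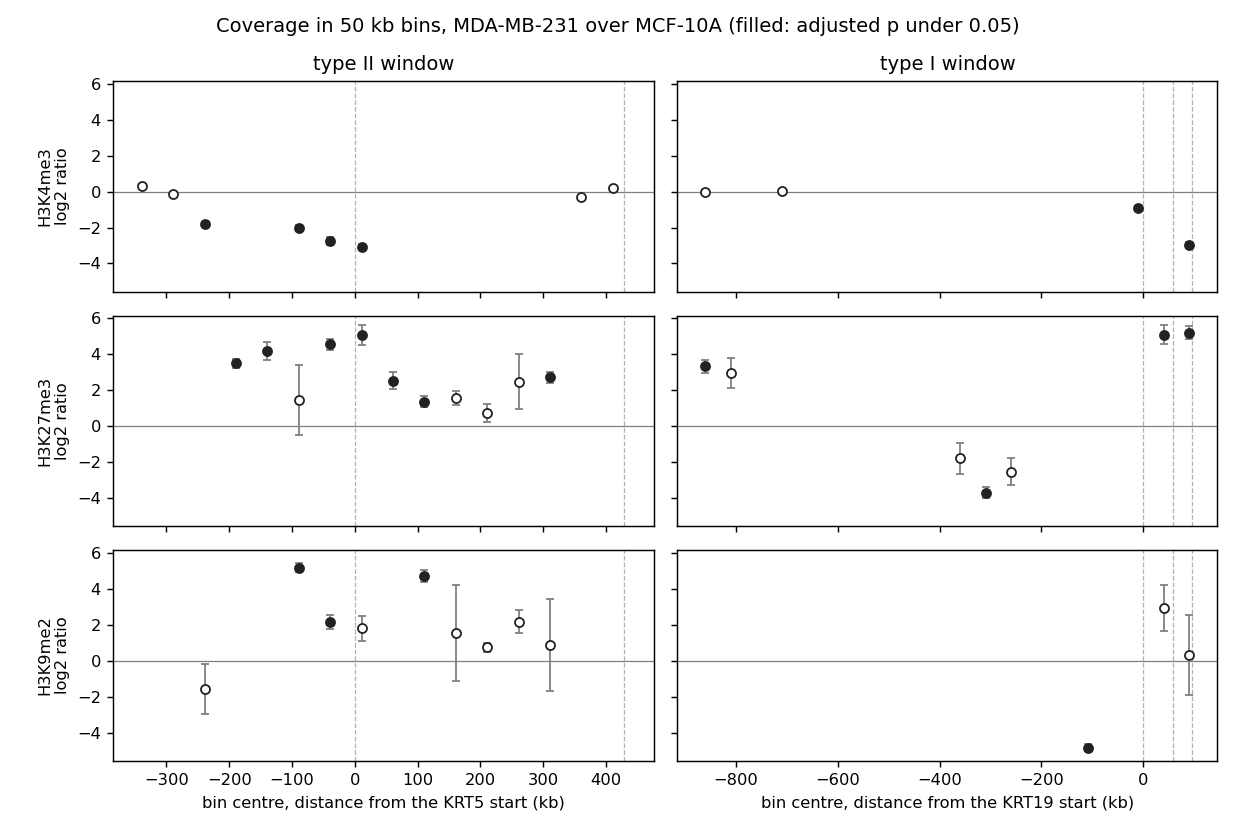
Log2 ratio of coverage, MDA-MB-231 over MCF-10A, in the 50 kb bins tested (log2 of bp/Mb plus 10, error bars are SE from limma), against the distance of the bin centre from KRT5 or KRT19 (kb), with filled points at an adjusted p under 0.05 and dashed lines at the 5 start sites. The bin of KRT5 is at -3.06 for H3K4me3 and 5.04 for H3K27me3, and bins listed at 0 in 1 line depend on the pseudocount.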

How the data were processed

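Each deposited list gives peak intervals and a score per peak, called per replicate. The score is the authors' own; the sources used here do not give its scale, and it was used for ranks and for a filter inside each list. Per the submitters' processing notes, the tools were bedtools, Bowtie2, CASAVA 1.6 and MACS 1.4 and the build was hg19, with no roles or settings given. The labels' protocols state that replicates were also normalised and combined; such data and the 4 inputs were not analysed here.

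Peaks on chromosomes 1 to 22 and X were used, counted from 1. A score percentile is the share of a list's peaks with the same or a lower score. Peaks tied at the top score of a list, such as 3100 in H3K4me3 lists, therefore share 1 percentile. Regions were merged peaks of the 4 libraries of a mark, and classes needed both replicates of a line and neither of the other. Window coverage was compared with two-sided exact permutation tests. Bins of 50 kb covered in at least 2 of 4 libraries were fitted with limma (trend, empirical Bayes), with line as the factor. Nothing shows whether replicates were separate cultures beyond the label "biological", so p-values measure the spread between these samples.

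The text names the 5 start sites, up to 5 regions per mark and class with the highest value of the lower percentile, and every bin that passed; other regions of a class were named after their values were seen. The windows, genes and lists were chosen with earlier results of these data known. Alternatives were pseudocounts of 1 and 50 bp/Mb, any covered bin, unscaled coverage (pseudocount 0.1 kb), 250 kb bins, a replicate block, a score of at least 100, equal list lengths, either replicate, 50% of a region covered, intervals of 1 and 5 kb, and each library left out.

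Used were Python 3.11.15, NumPy 2.4.6, pandas 2.3.3, matplotlib 3.10.9, R 4.3.3 and limma 3.58.1. Of the steps, the bin test was checked on simulated data. No simulated bin was empty in any library, so bins without coverage in a line were not checked. Changes of 4-fold were recovered in 100% of cases for H3K4me3 and H3K9me2 and in 28.4% for H3K27me3. Of the bins called, 1.96% were false for H3K4me3, 1.14% for H3K27me3 and 5.88% for H3K9me2. RefSeq order and promoters (GRCh38.p14) supplied names and sequence only. The promoter table used here held no entry for KRT14, KRT17, KRT18 and KRT19.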

Additional observations from a re-analysis of the deposited data

How the results depend on the processing

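Of 186 recomputed values for coverage, region counts and bin counts, 133 kept their direction and stayed within 1.5 times of the reported count. Coverage in bp changed direction in 3 sums. H3K27me3 in the type I window had a log2 ratio of -0.35 at a score of at least 100 and ranged from -0.23 to 1.71 with each library left out. H3K9me2 in the type II window had -0.14 at a score of at least 100, and in the type I window 0.52 with equal list lengths and, with each library left out, from -1.87 to 0.0498. For these and the values below the cause was not tested, except where fewer libraries or peaks left fewer features.

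When either replicate sufficed for a line, the MDA-MB-231 classes held 2 (H3K4me3), 141 (H3K27me3) and 21 (H3K9me2) regions, the MCF-10A classes 31 (H3K27me3) and 8 (H3K9me2), and the shared classes 19 (H3K27me3) and 10 (H3K9me2). At a score of at least 100, H3K27me3 had 1 MDA-MB-231, 5 MCF-10A and 0 shared regions, and H3K9me2 had 0 MDA-MB-231 and 0 shared regions. With equal list lengths, H3K27me3 had 4 MDA-MB-231 and 0 shared regions, and H3K9me2 had 1 MCF-10A and 3 shared regions. With 50% of a region covered, 0 H3K27me3 regions were shared. With each library left out, the MDA-MB-231 class ranged from 1 to 2 for H3K4me3, 17 to 132 for H3K27me3 and 9 to 18 for H3K9me2, the MCF-10A class from 9 to 23 for H3K27me3 and 4 to 7 for H3K9me2, and the shared class from 0 to 5 for H3K27me3.

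In bins of 250 kb, 3 bins were lower for H3K4me3, and 5 were higher and 0 lower for H3K27me3. For H3K27me3, 6 bins were higher with unscaled coverage, 2 were lower with a pseudocount of 50 bp/Mb, 2 were higher and 3 lower at a score of at least 100, and 3 were lower with equal list lengths. For H3K9me2, 0 bins were higher at a score of at least 100, where 2 were tested. With each library left out, lower bins ranged from 2 to 6 for H3K4me3, 0 to 3 for H3K27me3 and 0 to 2 for H3K9me2, and higher bins from 4 to 7 for H3K27me3; the lone library of a line was taken to vary like the other line. The H3K27me3 bin at chr12:53000001 reversed to -0.55 at a score of at least 100. Of the called bins 20 recomputed values kept their sign without passing, 5 of them for this bin.

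Same-numbered replicates correlated at 0.14, 0.02 and 0.03 in their deviations from the line means for H3K4me3, H3K27me3 and H3K9me2. With 2 pairs it cannot be told whether they share more than a number. With the replicate block, 0 bins were higher and 6 lower for H3K4me3, 9 and 1 for H3K27me3, and 3 and 1 for H3K9me2. The block left out the H3K27me3 bin at chr12:53000001 (limma adjusted p = 0.0813) and the H3K9me2 bin at chr12:52850001 (0.0584), and called the H3K9me2 bin at chr12:53100001 (0.0445) in its place. Depth is unknown, and 2 libraries a line limit what any of these tests can show.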
